A study of Homo sapiens with 12 samples.

Results

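The genes described here are the human ZNF genes, named for their zinc fingers, that were read at a moderate or high level in HCT116, an established line of human colorectal carcinoma cells. Members were the rows of the authors' deposited tables with ZNF, a number and at most 1 letter as their symbol and a mean log2 CPM of 4 or more, where CPM are reads scaled to library size and 4 stands for 16 CPM. Of 370 ZNF symbols among 12756 genes, 178 were members, 185 lay below that level, and 7 were left out by name by the rule, 3 of them above the level. The members were thus chosen by their mean level over all 4 groups, which is given as a description only. Just inside the limit were ZNF57, ZNF248 and ZNF567 with mean log2 CPM of 4.005, 4.006 and 4.014, and just outside were ZNF23, ZNF35 and ZNF675 with 3.992, 3.984 and 3.975. The levels implied for each group were at least 16 CPM in all 4 groups for 155 members and under it in at least 1 group for 23. For 4 members 1 group alone reached 16 CPM: the double knockout for ZNF114, ZNF248 and ZNF567, and the parental line for ZNF579.

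Polyadenylated RNA was sequenced from 12 libraries in 4 groups of 3 labelled replicates: AGO2 knockout cells, ANKRD52 knockout cells, cells with a knockout of both ANKRD52 and CSNK1A1 (the double knockout), and the parental HCT116 line. All were harvested 48 hours after seeding, and no other allele or agent is named in the labels. The labels do not say whether a knockout is 1 clone or whether replicates were separate cultures, so the p-values measure only how these libraries scatter, and that scatter may be technical. The files give fold changes and a mean level per gene, not values per library, so library depth is unknown, and the levels below are those that the mean and the 3 fold changes imply for each group. No level can therefore be given per replicate. These levels are CPM without division by gene length, so they are compared between groups and not between genes. Fewer cells that express a gene and less RNA per cell cannot be told apart in such bulk samples.

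Most ZNF genes encode proteins that read DNA with a row of C2H2 zinc fingers, each a short loop held by a zinc ion. Many also carry a KRAB domain, which recruits the co-repressor TRIM28 and, through it, the histone methyltransferase SETDB1 and heterochromatin proteins to silence chromatin, often at retroelements. AGO2 is the Argonaute protein that microRNAs guide to messages. ANKRD52 belongs to protein phosphatase 6, which removes phosphates from AGO2, and CSNK1A1 is a casein kinase that adds them. The coding sequences of KRAB zinc finger genes are known to repeat near-identical finger and linker units, and such repeats hold matches to the seeds of several microRNAs, the bases that pair with a target.

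The sequence features of the members, which the rule did not use, were counted beside those of all genes in the tables. A KRAB pattern was found in the translated coding sequence of 67 of 175 members with one (38.3%), against 171 of 12067 genes with one in the whole tables (1.42%). The pattern is strict, so that a member without a match may still hold a diverged KRAB domain. The members had a median of 9 C2H2 fingers (quartiles 5 and 13, highest 35), with 12 in the members matching the KRAB pattern and 8 in the others. In 4 members the finger pattern found no match: ZNF185, a LIM domain protein of the actin cytoskeleton, ZNF259 (ZPR1), a factor tied to translation and to SMN complexes, ZNF330, a nucleolar protein, and ZNF503, a transcriptional repressor. The finger pattern is strict on spacing too, so a member without a match may still hold an atypical finger. Chromosome 19 held 54 members (30.3%), against 6.94% of all genes. Median coding GC was 41.3% in members matching the KRAB pattern, 50.8% in the other members and 52.6% in all genes.

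The repeats are shown by the coding matches to 3 microRNA seeds. Capitals mark bases 2 to 8 of each mature microRNA, credited to RefSeq (GRCh38.p14):
miR-181a-5p: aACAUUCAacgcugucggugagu
miR-23a-3p: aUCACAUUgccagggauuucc
miR-199a-5p: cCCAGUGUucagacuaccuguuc
The matching DNA letters are TGAATGT for miR-181a, AATGTGA for miR-23a and ACACTGG for miR-199a. Each of the following 30-base windows is the first match with room for a full window in one coding exon of a member named below for its rise, read from GENCODE release 29 on GRCh38, with that match alone in capitals. The windows of ZNF248, ZNF33A and ZNF33B hold TGAATGT again further on, left in lower case. The windows with a miR-181a match lie at chr19:48286609-48286638 on the plus strand (ZNF114), chr10:37832197-37832226 on the minus strand (ZNF248), chr10:38055100-38055129 on the plus strand (ZNF33A) and chr10:42593945-42593974 on the minus strand (ZNF33B):
ZNF114: gagaaaccgtaTGAATGTgggaaatgtggg
ZNF248: gaaaaaaccttTGAATGTggtgaatgtggg
ZNF33A: gagaaacacttTGAATGTaatgaatgtggg
ZNF33B: gagaaacacttTGAATGTaatgaatgtggg
The windows with a miR-23a match lie at chr7:64706400-64706429 on the plus strand (ZNF107), chr1:227654616-227654645 on the plus strand (ZNF678) and chr19:21294358-21294387 on the minus strand (ZNF708):
ZNF107: aagatacggaaAATGTGAatatgagaattt
ZNF678: gaagccatacaAATGTGAagaatgtggcaa
ZNF708: aaaaccctacaAATGTGAagaatgtggcaa

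ZNF33A and ZNF33B, a pair of related genes, held 18 miR-181a matches each beside 16 fingers each, ZNF248 held 8 and ZNF114 held 1. ZNF107 held 19 miR-23a matches, ZNF708 held 10 and ZNF678 held 9. ZNF114, ZNF33A and ZNF280D, also named below for their rise, held 2, 1 and 1 miR-23a matches, and those windows are not shown. Over all coding sequence, miR-181a matches numbered 2.65 per kb in members matching the KRAB pattern, 0.456 per kb in the other members and 0.125 per kb in all genes. The same densities were 1.70, 0.410 and 0.119 per kb for miR-23a and 1.31, 0.352 and 0.126 per kb for miR-199a. At least 1 miR-181a match was found in 76.1% of members matching the KRAB pattern, 34.3% of the others and 13.7% of all genes. For miR-16-5p the order was the other way, with a coding match in 1.49% of members matching the KRAB pattern, 32.4% of the others and 35.6% of all genes. Of 453 miR-181a coding matches in members, 33 overlapped a miR-23a match. A match is a stretch of letters and not a measured site.

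**Figure D1:**
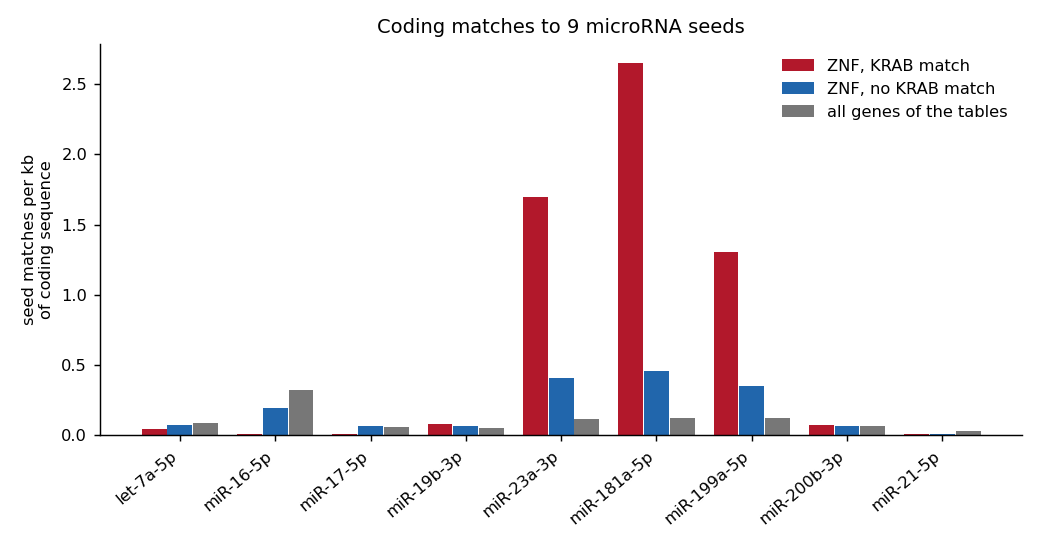
Coding matches to bases 2 to 8 of 9 microRNAs per kb of coding sequence (y axis), in ZNF members matching the KRAB pattern, ZNF members not matching it, and all genes of the tables. The bars for miR-181a-5p, miR-23a-3p and miR-199a-5p stand at 2.65, 1.70 and 1.31 per kb in the members matching the KRAB pattern, above both other groups.

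The libraries were checked by a few genes of the authors' deposited tables. AGO2 was at a log2 fold change of -1.07 in AGO2 knockout cells (adjusted p = 0.0477) and CSNK1A1 at -2.42 in the double knockout (adjusted p = 1.71e-10), while ANKRD52 was at -0.65 in the double knockout (adjusted p = 2.32e-05) and at 0.03 in the ANKRD52 knockout (adjusted p = 0.915), where its RNA level therefore gives no check of the label. Of 7 epithelial markers 6 were in the tables, with summed implied levels of 3398, 3159 and 8519 CPM in the AGO2, ANKRD52 and double knockout and 3288 CPM in parental cells. The 3 keratins make up most of these sums. CDH1 was at 78.3, 45.4 and 312 CPM in the AGO2, ANKRD52 and double knockout and 114 CPM in parental cells, and EPCAM at 313, 199.5 and 381 CPM in the AGO2, ANKRD52 and double knockout and 349 CPM in parental cells. In the ANKRD52 knockout both fell, with log2 fold changes of -1.33 for CDH1 (adjusted p = 0.0195) and -0.81 for EPCAM (adjusted p = 5.45e-04) by the authors' deposited table. Of 6 markers of blood, vessel and connective tissue cells 3 were in the tables (COL1A1, LYZ and VWF), with summed implied levels of 13.2, 13.4 and 25.2 CPM in the AGO2, ANKRD52 and double knockout and 12.6 CPM in parental cells. Their part in the results below was not tested.

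Few members changed in AGO2 knockout cells. By the authors' edgeR test at an adjusted p under 0.05, 4 of 178 members were higher and 4 lower (2.25% each) in the authors' deposited table. The shares were 3.38% higher and 2.72% lower among all 12756 genes, and 4.06% higher and 2.72% lower among the 8600 genes at the members' level, so the members' shares were near or under those of these 2 sets. Genes of low coding GC differed from both. Among genes at that level in the lowest tertile of coding GC 6.86% were higher and 0.67% lower, with a median log2 fold change of 0.09. Of the 87 members in that tertile 2 were higher and 2 lower (2.30% each), with a median of -0.05. At an unadjusted p under 0.05, 38 members passed, 9 higher and 29 lower. Among the 8600 genes the order was the other way, with 1167 higher and 825 lower. With the likelihood ratio read against F (1 and 8 degrees of freedom) in place of edgeR's chi-square, no member was called and 23 had an unadjusted p under 0.05. Of all 12756 genes 0 were called under F, and 1834 had an unadjusted p under 0.05. The median log2 fold change was -0.05 over members and 0.02 over genes at that level, and 5% to 95% of the members lay between -0.43 and 0.22.

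ZNF385A, which binds p53 and also RNA, was at an implied 101 CPM in AGO2 knockout cells, against 60.2 CPM in parental cells. Its log2 fold change in the authors' deposited table was 0.75 (approximate SE 0.14, adjusted p = 5.94e-05). ZNF655 and ZNF800, both on chromosome 7, were at 0.55 each in that deposited table of the authors (approximate SE 0.15 each, adjusted p = 0.00956 and 0.00852). ZNF800 is known as a repressor in enteroendocrine differentiation. The 15 members on chromosome 7 ranged between -0.47 and 0.55 with a median of 0.04, and these were its only called members in this comparison. ZNF367 was also higher, at 93.8 CPM in AGO2 knockout cells against 72.1 CPM in parental cells (log2 fold change 0.38, approximate SE 0.11, adjusted p = 0.0136 in the authors' deposited table).

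On the other side, ZNF787 was at 22.8 CPM in AGO2 knockout cells, against 36.4 CPM in parental cells. The authors' deposited table gave it a log2 fold change of -0.67 (approximate SE 0.18, adjusted p = 0.00921). The pseudogene ZNF252P on chromosome 8 was at -0.49 (adjusted p = 0.0218), and the KRAB genes ZNF160 and ZNF616 on chromosome 19 were at -0.48 and -0.39 (adjusted p = 0.0181 and 0.0491), by the authors' deposited table. The 7 ZNF genes left out by name, which are no members, were all below 0 in this comparison. Of these 4 were called lower by edgeR and their median log2 fold change was -0.66. What they share with ZNF252P was not tested. None of the 67 members matching the KRAB pattern was higher by edgeR, also at an unadjusted p under 0.05. Of the 54 members on chromosome 19, 3 fell and none rose, with a median log2 fold change of -0.14, and at an unadjusted p under 0.05 there were 13 lower and 0 higher. The lowest value of any member, -0.88 for ZNF704, did not pass the test (adjusted p = 0.131 in the authors' deposited table).

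More members rose in ANKRD52 knockout cells. There 26 of 178 members were higher (14.6%) and 5 lower (2.81%) in the authors' deposited table, against 7.62% higher and 6.04% lower among all genes and 8.24% higher and 6.56% lower among genes at the members' level. The median log2 fold change was 0.07 over members and 0.00 over genes at that level. The members' coding GC is low, and among genes at their level in the lowest tertile of coding GC 10.7% were higher and 2.9% lower. Of the 87 members in that tertile 16 were higher (18.4%) and none lower by edgeR, with 2 lower at an unadjusted p under 0.05. The members' 3' UTRs are also long, with a median of 1513 bases against 1137 in genes at their level. Length of the 3' UTR and the log2 fold change in this knockout had a Spearman correlation of 0.23 over 178 members and 0.25 over 8543 genes at that level. A part of GC or 3' UTR length in these counts was not tested. Of members matching the KRAB pattern 8 of 67 rose (11.9%) and none fell (1 at an unadjusted p under 0.05), and of the others 18 of 108 rose (16.7%) and 5 fell. Under the F distribution no member was called, and 44 had an unadjusted p under 0.05. Of all 12756 genes 3 were called under F, and 2473 had an unadjusted p under 0.05.

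ZNF678 had the highest fold change, at an implied 28.8 CPM in ANKRD52 knockout cells against 16.9 CPM in parental cells (log2 fold change 0.77, approximate SE 0.16, adjusted p = 6.82e-05 in the authors' deposited table). ZNF532, a partner of the chromatin reader ZMYND8, was at 36.5 CPM in ANKRD52 knockout cells against 22.6 CPM in parental cells (log2 fold change 0.69, approximate SE 0.13, adjusted p = 1.71e-05 in the authors' deposited table). ZNF385A was again higher, with 97.1 CPM in ANKRD52 knockout cells, against 60.2 CPM in parental cells and a log2 fold change of 0.69 in the authors' deposited table (approximate SE 0.14, adjusted p = 9.15e-05). None of these 3 genes matched the KRAB pattern.

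Among KRAB genes, ZNF107 was at 52.0 CPM in ANKRD52 knockout cells against 36.5 CPM in parental cells, and ZNF708 at 21.3 CPM against 14.6 CPM in parental cells. Their log2 fold changes were 0.51 and 0.54 in the authors' deposited table (approximate SE 0.11 and 0.14, adjusted p = 1.03e-04 and 0.00235). Both are shown above with miR-23a matches, as is ZNF678, but the genes shown there were picked for their rise. ZNF33B (log2 fold change 0.48, adjusted p = 0.00959) and ZNF33A (0.35, adjusted p = 0.0407) also rose in the authors' deposited table.

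The remaining highest members were ZNF362 (0.53), ZNF652 (0.48), a partner of the co-repressor CBFA2T3, ZNF367 (0.47) and ZNF280D (0.46) in the authors' deposited table. Their adjusted p-values by the authors' edgeR test were 0.00272, 4.62e-04, 3.82e-04 and 0.00367 in the order given. ZNF280D shares 48.8% of its 75-base stretches with transcripts of another gene, so its counts are uncertain. Of the 73 members with a coding miR-23a match 16 rose and none fell by edgeR (1 at an unadjusted p under 0.05), and of the 102 without one 10 rose and 5 fell. For miR-181a these counts were 13 and 0 of 88 with a match (2 lower at an unadjusted p under 0.05), and 13 and 5 of 87 without. Median coding GC was 40.9% in members with a miR-23a match and 53.7% in those without, and 41.5% and 57.3% for miR-181a. Within the lowest tertile of coding GC 15 of 59 members with a miR-23a match rose and 1 of 28 without one, and above it 1 of 14 with a match and 9 of 74 without. For miR-181a 10 of 65 with a match and 6 of 22 without rose within that tertile, and 3 of 23 with a match and 7 of 65 without above it. In the AGO2 knockout 1 of the 73 members with a miR-23a match rose and 1 fell by edgeR. Of the 102 without one 3 rose and 2 fell there. In the double knockout 36 of the 73 rose and 6 fell, and 24 of the 102 rose and 19 fell. A part of microRNAs in these counts was not tested.

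ZNF516, which represses genes together with CtBP and the histone demethylase LSD1, was the lowest member in ANKRD52 knockout cells. Its implied level was 17.3 CPM there, against 42.7 CPM in parental cells (log2 fold change -1.30, approximate SE 0.29, adjusted p = 3.40e-04 in the authors' deposited table). ZNF787 was at -0.53 on the log2 scale (adjusted p = 0.0272) and ZNF469, the gene mutated in brittle cornea syndrome, at -0.51 (adjusted p = 0.0185) by the authors' deposited table. ZNF598, a ubiquitin ligase that senses collided ribosomes, was at -0.32 (adjusted p = 0.0320) and ZNF259 at -0.24 (adjusted p = 0.0406) there, by the authors' deposited table.

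**Figure D2:**
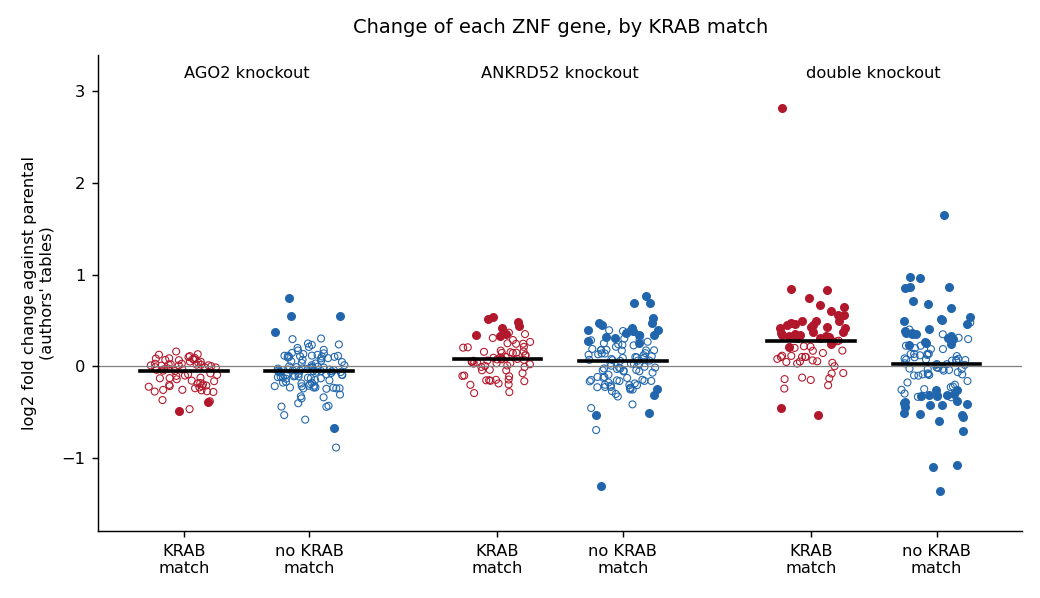
Log2 fold change against parental (y axis) of each of the 175 members with a coding sequence, for the AGO2, ANKRD52 and double knockout, split by a match to the KRAB pattern. Filled points passed the authors' edgeR test at an adjusted p under 0.05, bars are medians, and in the double knockout the median was 0.27 with a KRAB match and 0.03 without.

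In the double knockout the members moved both ways, and the KRAB genes that passed the test were mostly higher. Of 178 members 62 were higher (34.8%) and 25 lower (14%) in the authors' deposited table. The higher ones include ZNF114, ZNF248 and ZNF567, which reached the members' level in the double knockout alone. The lower ones include ZNF579, which reached it in the parental line alone. Among all genes 22.9% were higher and 20.1% lower, and among genes at the members' level 22.1% were higher and 22.9% lower. The median log2 fold change was 0.12 over members and -0.01 over genes at that level. Under the F distribution 39 members were higher and 15 lower, and of all 12756 genes 3784 were called in either direction.

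By KRAB class the counts were these. Of the 67 members matching the KRAB pattern 33 were higher (49.3%) and 2 lower, with a median log2 fold change of 0.27. ZNF114 and ZNF248, members through the double knockout alone, are among the 33. Of the 108 others 27 were higher (25%) and 23 lower (21.3%), with a median of 0.03, close to the shares of other genes at this level. The 2 lower KRAB genes were ZNF584 (-0.53, adjusted p = 0.00170) and ZNF57 (-0.45, adjusted p = 0.0104) in the authors' deposited table.

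The same counts were taken within classes of location and GC. On chromosome 19, 19 of 34 members matching the KRAB pattern rose and 2 fell, and 5 of 20 others rose and 7 fell. On other chromosomes 14 of 33 members matching it rose and none fell by edgeR, also at an unadjusted p under 0.05. Among genes at the members' level in the lowest tertile of coding GC 25.5% were higher and 15.8% lower. In that tertile, 28 of 51 members matching the KRAB pattern were higher (54.9%) and 1 lower, and 14 of 36 others were higher (38.9%) and 6 lower. Over 175 members, coding GC and the log2 fold change had a Spearman correlation of -0.21, -0.35 and -0.40 in the AGO2, ANKRD52 and double knockout, and over 8490 genes at that level of -0.33, -0.21 and -0.16, a description across genes that share the same libraries.

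**Figure D3:**
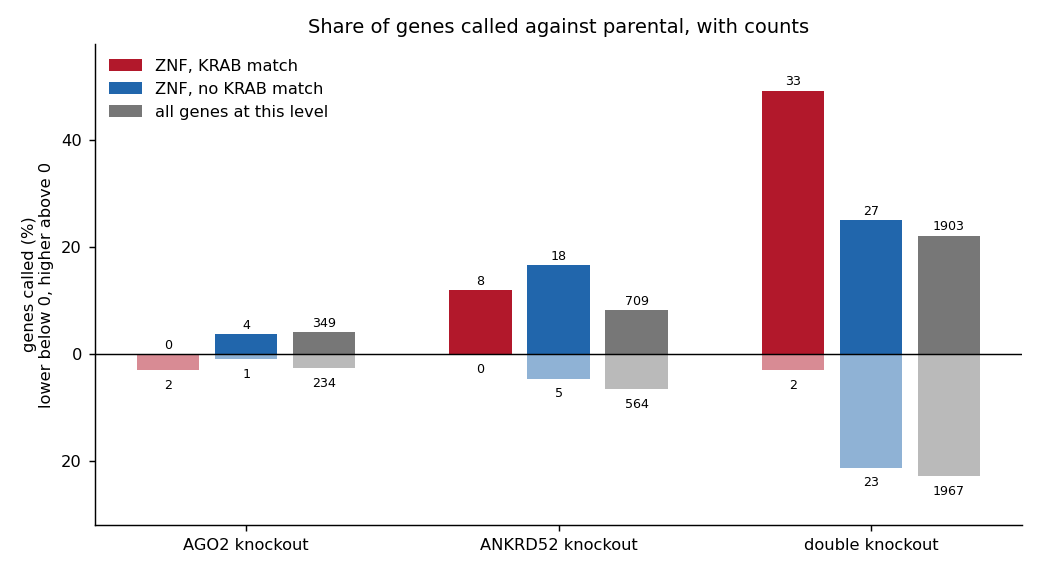
Percent of genes called higher (above 0) and lower (below 0, paler) against parental in each knockout, with the number of genes on each bar, for ZNF members matching the KRAB pattern, ZNF members not matching it, and all genes whose mean log2 CPM was 4 or more. In the double knockout 49.3% of the members matching the KRAB pattern were higher, against 25% of the other members and 22.1% of all genes at this level.

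ZNF114, a KRAB gene with 3 fingers, had the highest fold change of all members. Its implied level was 73.1 CPM in the double knockout, 12.3 CPM in the ANKRD52 knockout, 10.3 CPM in the AGO2 knockout and 10.3 CPM in parental cells. The log2 fold change was 2.82 in the double knockout, which is 7.07-fold (approximate SE 0.17, adjusted p = 3.93e-56 in the authors' deposited table). The gene reached the members' level through the double knockout alone.

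ZNF385A followed, at 190 CPM in the double knockout against 60.2 CPM in parental cells (log2 fold change 1.66, approximate SE 0.15, adjusted p = 6.32e-28 in the authors' deposited table). It was the only member called higher in all 3 tables, and ZNF787, at 25.1 CPM in the double knockout against 36.4 CPM in parental cells (-0.53, adjusted p = 0.00936 in the authors' deposited table), was the only member called lower in all 3, all of which share the parental libraries. ZNF532 was at 44.7 CPM in the double knockout against 22.6 CPM in parental cells (log2 fold change 0.98, adjusted p = 3.67e-12 in the authors' deposited table).

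ZNF33A and ZNF33B, which lie on either side of the chromosome 10 centromere, both rose in the double knockout. ZNF33A was at 71.4 CPM in the double knockout against 39.7 CPM in parental cells, and ZNF33B at 38.5 CPM against 21.6 CPM in parental cells. Their log2 fold changes were 0.85 and 0.83 in the authors' deposited table (approximate SE 0.13 and 0.14, adjusted p = 3.35e-10 and 4.98e-08). They share 2.21% and 2.29% of their 75-base stretches with other genes' transcripts. The 250 bases before their start sites, from RefSeq (GRCh38.p14), were identical at 205 positions of an alignment (82%), and are shown because both genes moved together, with the letters GCATGC, the core of the NRF1 motif, in capitals. They lie at chr10:38010425-38010674 on the plus strand and chr10:42638571-42638820 on the minus strand:
ZNF33A: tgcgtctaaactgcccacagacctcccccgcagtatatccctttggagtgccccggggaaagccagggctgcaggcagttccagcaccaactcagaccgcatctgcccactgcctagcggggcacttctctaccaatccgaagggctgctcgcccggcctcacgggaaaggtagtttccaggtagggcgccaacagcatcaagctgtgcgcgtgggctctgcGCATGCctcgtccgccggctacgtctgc
ZNF33B: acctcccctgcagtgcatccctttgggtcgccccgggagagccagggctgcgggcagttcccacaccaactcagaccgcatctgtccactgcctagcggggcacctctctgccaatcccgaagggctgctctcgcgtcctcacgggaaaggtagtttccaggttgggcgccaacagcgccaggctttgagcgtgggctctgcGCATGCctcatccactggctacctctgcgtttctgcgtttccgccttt
Searched on both strands, GCATGC was in 17 of 153 members' promoters in the RefSeq table (11.1%), in 11 of the 62 of members matching the KRAB pattern (17.7%) and in 7.48% of 27305 promoters. The other letters searched were GGGCGG (66.7% of members, 44.6% of all promoters), AAGATGG (6.54% and 6.06%) and ACTACAA (9.80% and 2.95%). Matches of different motifs can share end letters only, and a match is no measured binding.

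The other highest members were ZNF503 (log2 fold change 0.97, adjusted p = 4.87e-05), ZNF185 (0.87, 1.36e-04), ZNF358 (0.87, 6.29e-07), ZNF697 (0.85, 2.67e-11) and ZNF248 (0.74, 1.14e-06) in the authors' deposited table. ZNF358 shares 18.5% of its 75-base stretches with another gene, so its counts are uncertain. ZNF248 is a KRAB gene with 7 fingers that was at 22.3 CPM in the double knockout against 13.3 CPM in parental cells.

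The 3 lowest members in the double knockout did not match the KRAB pattern. ZNF512B, which binds the NuRD co-repressor complex, was at 9.97 CPM in the double knockout against 25.7 CPM in parental cells (log2 fold change -1.36, approximate SE 0.14, adjusted p = 6.45e-22 in the authors' deposited table). ZNF217, an oncogene that works with CoREST and LSD1, was at 42.1 CPM in the double knockout against 90.3 CPM in parental cells (-1.10, approximate SE 0.20, adjusted p = 2.55e-07 in the authors' deposited table). Both lie on chromosome 20.

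ZNF395, a factor that binds papillomavirus and huntingtin promoters, was at 47.2 CPM in the double knockout against 99.4 CPM in parental cells (-1.07, approximate SE 0.10, adjusted p = 5.39e-24 in the authors' deposited table). It shares 41.4% of its 75-base stretches with transcripts of a neighbour, FBXO16, so its counts are uncertain. ZNF76, a paralog of the activator ZNF143, was at -0.70 on the log2 scale (adjusted p = 3.84e-06 in the authors' deposited table). Others that fell were ZNF865 (-0.60, adjusted p = 4.87e-05), ZNF580 (-0.55, 0.0161), ZNF579 (-0.51, 0.00879) and ZNF397 (-0.50, 0.0273) in the authors' deposited table.

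**Figure D4:**
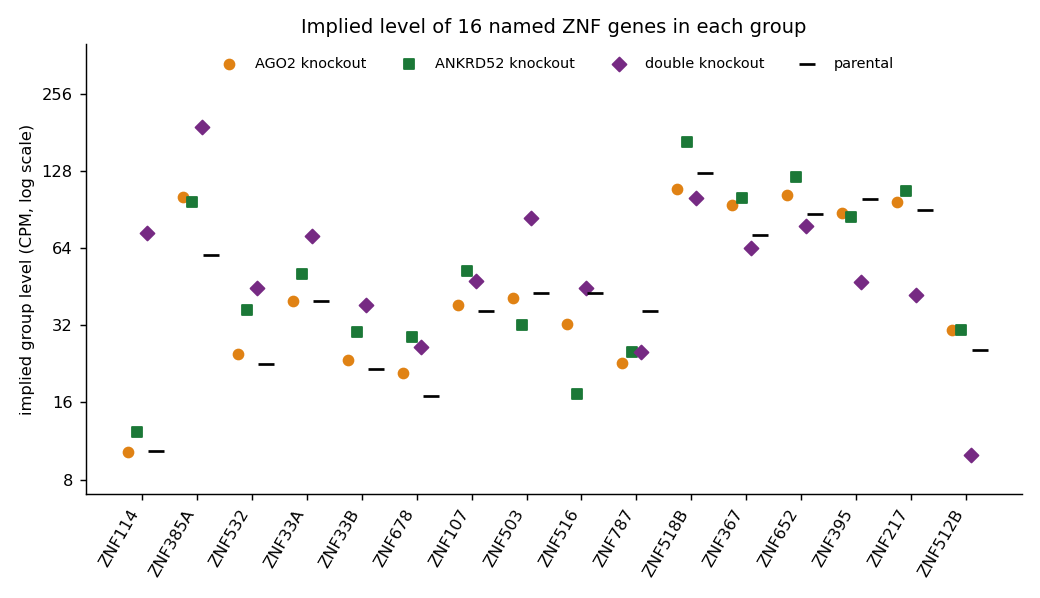
Implied group level in CPM (y axis, log scale) of 16 named ZNF genes in the AGO2, ANKRD52 and double knockout and the parental line, from the mean level and the 3 fold changes, without replicate error. ZNF114 stands at 73.1 CPM in the double knockout and at 12.3 CPM or lower elsewhere, and ZNF516 at 17.3 CPM in the ANKRD52 knockout.

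The counts by known role below stand beside shares over all genes of 22.9% higher and 20.1% lower in the double knockout and 7.62% and 6.04% in the ANKRD52 knockout. Of the 16 members listed as transcription regulators 2 rose and none fell by edgeR in the ANKRD52 knockout, where 4 were higher and 2 lower at an unadjusted p under 0.05. In the double knockout 1 of them rose (6.25%), the SUMO ligase ZNF451 (0.50, adjusted p = 2.12e-08), and 5 fell (31.3%): ZNF217, ZNF395, ZNF76, the splicing-linked ZNF318 (-0.39, adjusted p = 1.29e-04) and ZNF143 (-0.31, adjusted p = 0.00527), by the authors' deposited table. Among the 11 members tied to RNA, ribosomes or the spindle 2 rose and 1 fell in the ANKRD52 knockout, and 4 rose (36.4%) and 2 fell (18.2%) in the double knockout, with ZNF385A highest and ZNF598 (-0.37, adjusted p = 0.00242 in the authors' deposited table) among those that fell. Of 6 members that work with histone methylation enzymes, 3 rose and 1 fell in the ANKRD52 knockout, and 2 rose and 2 fell in the double knockout. Those called in the ANKRD52 knockout were ZNF644 (0.42), ZNF518B (0.40) and ZNF518A (0.39), the first pair partners of the methyltransferase G9a, and ZNF516 (adjusted p = 5.44e-04, 0.00144, 0.0125 and 3.40e-04 by the authors' deposited table).

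Of 4 KRAB members known to bind retroelements, 1 rose in the ANKRD52 knockout, ZNF680 (0.44, adjusted p = 0.00277), and 2 rose in the double knockout, ZNF248 and ZNF91 (0.49, adjusted p = 0.00496), by the authors' deposited table. ZNF91 represses SVA and LINE-1 retroelements. ZNF100 was at 0.16 and 0.04 in the ANKRD52 and double knockout, and neither value passed the test (adjusted p = 0.330 and 0.785 by the authors' deposited table). Of the ZMYND8 partners, ZNF532 rose in the double knockout and ZNF687 fell (-0.26, adjusted p = 0.0203), while ZNF592 was at -0.20 and did not pass (adjusted p = 0.0910), by the authors' deposited table. Of 5 listed members with a SCAN domain (ZNF24, ZNF202, ZNF263, ZNF444 and ZNF496), ZNF24 rose in the double knockout (0.27, adjusted p = 0.0219 by the authors' deposited table), and edgeR made no other call among them in the 3 tables. At an unadjusted p under 0.05, 1 of these 5 was lower in the AGO2 knockout, 1 higher in the ANKRD52 knockout, and 1 higher and 1 lower in the double knockout. The list does not hold every SCAN member: ZNF397, named above among those that fell, and ZNF445, looked up after its value was seen, carry that domain too, and ZNF445 rose in the double knockout (0.24, adjusted p = 0.0160 by the authors' deposited table).

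The co-repressor pathway through which KRAB proteins act, 24 genes that are no members, was measured in the same tables. In the AGO2 knockout 1 rose and none fell (2 at an unadjusted p under 0.05 by edgeR), in the ANKRD52 knockout 5 rose and none fell (1 unadjusted), and in the double knockout 6 rose (25%) and 8 fell (33.3%), against 22.9% and 20.1% of all genes. For the ANKRD52 knockout the 5 are 20.8% of the list, against 7.62% higher among all genes, and for the AGO2 knockout the 1 is 4.17%, against 3.38%. TRIM28, the KRAB partner itself, was at -0.62 in the double knockout (adjusted p = 1.38e-09) and SETDB1 at -0.29 (adjusted p = 0.00328) in the authors' deposited table. CHD3, a NuRD remodeller, was at -1.31 (adjusted p = 1.99e-16), and the HP1 genes CBX1 and CBX5 were at 0.29 and 0.18 (adjusted p = 0.00892 and 0.182), by the authors' deposited table for the double knockout. Besides CBX1, those called higher in the double were KIAA1551 (0.52), ATRX (0.41), HDAC2 (0.38), SMARCAD1 (0.30) and MORC2 (0.29). The 5 called higher in the ANKRD52 knockout were CBX5 (0.45), KIAA1551 (0.43), ATRX (0.38), CBX1 (0.30) and SMARCAD1 (0.27).

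The double and the ANKRD52 knockout, which differ by CSNK1A1 in their labels, were set against each other through the difference of their fold changes, in which the parental level drops out. By an approximate normal test with Benjamini-Hochberg adjustment over 11877 genes, 36 of 178 members were higher in the double (20.2%) and 20 lower (11.2%), against 18.1% and 16.3% of those genes. Members matching the KRAB pattern gave 21 higher and 1 lower of 67 (31.3% and 1.49%), and the others gave 15 higher and 19 lower of 108 (13.9% and 17.6%). ZNF114 and ZNF248, among the 21, are members through the double knockout alone. On chromosome 19, 16 of the 34 members matching the pattern were higher and none lower (2 at an unadjusted p under 0.05), while on other chromosomes 5 of 33 were higher (15.2%) and 1 lower, under the 18.1% higher among all genes tested. With the sum of both squared errors as variance, 15 members were higher and 9 lower.

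ZNF114 differed most, by 2.58 on the log2 scale (approximate SE 0.17, adjusted p = 3.31e-48 by that normal test). As said above, it is a member only through its level in the double knockout, so its place here is a description. ZNF503 and ZNF516 were next, at 1.38 and 1.37 (approximate SE 0.22 and 0.29, adjusted p = 2.82e-09 and 1.89e-05). ZNF516 stood at 44.8 CPM in the double knockout and 17.3 CPM in the ANKRD52 knockout, with 42.7 CPM in parental cells, so that the double was near the parental level (log2 fold change 0.07, adjusted p = 0.863 in the authors' deposited table). ZNF608 was at 1.17 (approximate SE 0.36, adjusted p = 0.005) and ZNF385A at 0.97 (approximate SE 0.14, adjusted p = 5.30e-10), both by the normal test.

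The members lower in the double than in the ANKRD52 knockout were led by ZNF512B at -1.62, ZNF217 at -1.34 and ZNF395 at -0.85 (approximate SE 0.13, 0.19 and 0.10, adjusted p = 4.83e-32, 1.46e-10 and 2.36e-15 by the normal test). ZNF518B was at -0.72 (adjusted p = 5.78e-12) and ZNF367 at -0.65 (adjusted p = 2.23e-08) by the same test. ZNF518B was at 100.1 CPM in the double knockout and 165 CPM in the ANKRD52 knockout, with 125 CPM in parental cells. It was called in opposite directions in the double (-0.32, adjusted p = 0.00368) and the ANKRD52 knockout (0.40, adjusted p = 0.00144) in the authors' deposited table.

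**Figure D5:**
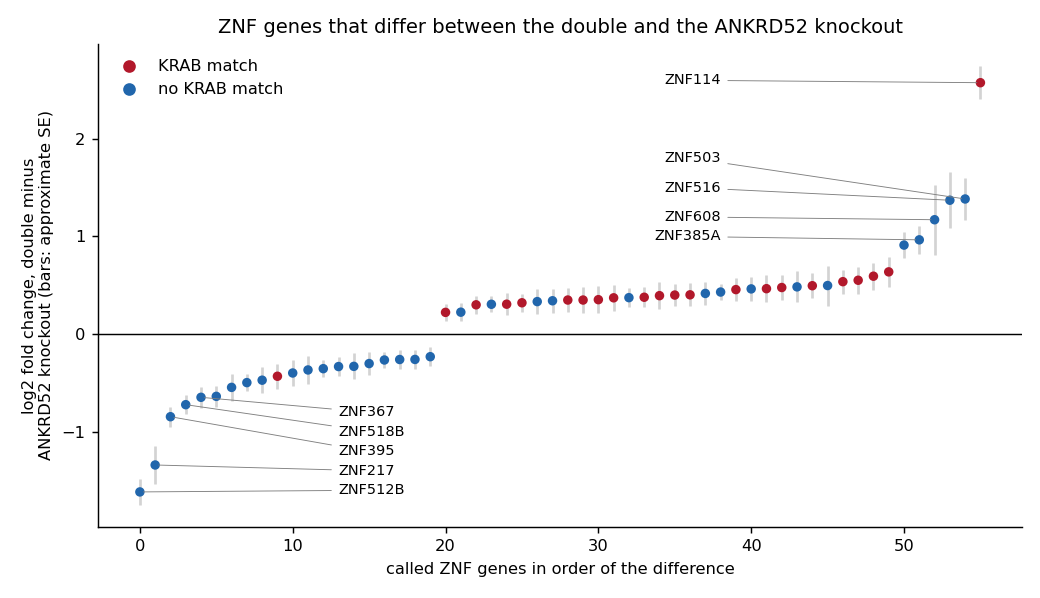
Difference in log2 fold change, double minus ANKRD52 knockout (y axis), of the 56 ZNF members called by the approximate normal test, in order of the difference (x axis), with approximate standard errors as bars. Of the 36 above 0, 21 match the KRAB pattern, and of the 20 below 0, 1 does. ZNF114 and ZNF248, among the 21, are members through the double knockout alone.

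Between the ANKRD52 and the AGO2 knockout, 29 members were higher in the ANKRD52 knockout (16.3%) and 2 lower (1.12%), against 5.52% and 3.91% of the 11877 genes by the same normal test. Members matching the KRAB pattern gave 12 higher of 67 and none lower (2 at an unadjusted p under 0.05), and the others gave 16 higher and 2 lower of 108. With the sum of both squared errors as variance, 5 members were higher and 0 lower. ZNF358 was at 0.82 (approximate SE 0.16, adjusted p = 4.90e-05), ZNF252P at 0.76 (adjusted p = 2.37e-05) and ZNF362 at 0.74 (adjusted p = 1.19e-05) by this test. Of the 7 ZNF genes left out by name, 4 were higher and 0 lower here, with a median difference of 0.67. ZNF711, a factor mutated in X-linked intellectual disability, was at 0.62 (adjusted p = 0.00193) and ZNF91 at 0.61 (adjusted p = 0.00315).

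ZNF516 and ZNF259 were the 2 lower members, at -0.90 and -0.38 (approximate SE 0.29 and 0.09, adjusted p = 0.0265 and 5.26e-04 by the normal test). ZNF259 stood at 57.2 CPM in the ANKRD52 knockout and 74.6 CPM in the AGO2 knockout, with 67.6 CPM in parental cells. Chromosome 19 members gave 10 higher of 54 and none lower (1 at an unadjusted p under 0.05) in this comparison, with a median difference of 0.20.

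Over the 3 tables, 100 members were called in at least 1 and 78 in none. Besides ZNF518B, ZNF252P was the member called in opposite directions in 2 tables, at 0.52 in the double (adjusted p = 0.00157) and -0.49 in the AGO2 knockout (adjusted p = 0.0218) in the authors' deposited table.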

How the data were processed

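RNA of 12 HCT116 libraries, in 4 groups of 3, was read with a stranded kit of 75 cycles, as the labels' protocols state. The submitters' processing notes list hg19 as the build and TopHat2 2.0.12, featureCounts 1.4.6 and edgeR 3.8.6 as tools; their roles are not given in the sources used here. Per the file headers, each file is edgeR output of the authors for 1 knockout set against the parental line. It holds the authors' log2 fold change and mean log2 CPM, the authors' likelihood ratio as a score, and a deposited p-value with its adjusted value. In 38268 of 38268 rows the deposited p-value equalled the chi-square tail of the likelihood ratio (1 degree of freedom, within 1e-06). Values per library were not used here, so the authors' test took the place of a count test, no replicate was left out and depth is unknown.

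Members and gene lists were chosen with earlier results of these data known, so lists were only counted beside all genes tested, at the authors' adjusted p under 0.05. An approximate standard error was the absolute fold change (log2) divided by the root of the likelihood ratio. Between knockouts, fold changes were subtracted, the variance was the mean of the pair of squared errors, and a normal test was adjusted by Benjamini-Hochberg over genes at a mean log2 CPM of 1 or more, after a check of the code on simulated data. The simulated errors were normal, of equal variance in each group and of known size, as the test assumes. That check therefore says nothing on how good the approximate standard errors are for groups of 3 libraries. A level for each group was worked out from the mean level and all 3 fold changes, with 4 groups of equal weight assumed.

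Named were up to 10 called members each way per knockout, up to 5 each way per difference, members called alike in all 3 tables, those at the limit of 4, members of the role lists and, chosen after their values were seen, ZNF57, ZNF704 and ZNF33A in the ANKRD52 knockout. KRAB and finger patterns were searched in translated GENCODE release 29 coding sequences (GRCh38), the KRAB pattern in the first 200 residues. By symbol 176 members matched and 2 by synonym, and 3 had no coding transcript. Members sharing over 10% of their 75-base stretches with another gene's transcripts, 12 in all, were taken as uncertain, and 119 shared none. Alternatives were other thresholds, adjustments, centring, member limits, variances and an F distribution. Chosen after seeing the data were leaving out chromosome 8 or sharing members, the coding GC tertile and its crossing with coding matches, and the alternatives of the KRAB counts. Figures were drawn with matplotlib 3.10.9 and sequences read with Biopython 1.88, and calculations used scipy 1.17.1, pandas 2.3.3 and numpy 2.4.6 under Python 3.11.15.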

Additional observations from a re-analysis of the deposited data

How the results depend on the processing

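No paired analysis was possible because the files hold 1 row of edgeR output per gene and no values per library, and for the same reason no replicate could be left out. Of the counts and medians over members, 101 alternatives stayed within 1.5 times the reported count or within the spread and 36 did not. No median changed sign, while a count of calls in 1 direction cannot do so. At an adjusted p under 0.01, 1 member was lower in the AGO2 knockout, 17 were higher and 1 lower in the ANKRD52 knockout (5 higher with a KRAB match, 1 lower without), 1 with a KRAB match was lower in the double, and 15 were higher and 1 lower in the ANKRD52 than in the AGO2 knockout. At 0.1, 11 were lower in the AGO2 and 8 in the ANKRD52 knockout. Among the 91 members whose mean log2 CPM was 5 or more, 2 were lower in the AGO2 knockout, 17 higher and 3 lower in the ANKRD52 knockout, and 34 higher in the double. With an absolute log2 fold change of at least 0.5, 1 was lower in the AGO2 knockout, 6 higher and 3 lower in the ANKRD52 knockout, and 23 higher and 10 lower in the double.

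With an F distribution (1 and 8 degrees of freedom) in place of edgeR's chi-square, 0 members were called higher or lower in the AGO2 and 0 in the ANKRD52 knockout, with or without a KRAB match, where 23 and 44 members had an unadjusted p under 0.05, against 38 and 57 by chi-square. In the double 39 were then higher and 15 lower, of which 21 higher and 1 lower had a KRAB match and 17 higher and 14 lower had none. Of all 12756 genes the F distribution called 0, 3 and 3784 in the AGO2, ANKRD52 and double knockout. With the sum of both squared errors as variance, 15 members were higher and 9 lower in the double than in the ANKRD52 knockout, and 5 higher and 0 lower in the ANKRD52 than in the AGO2 knockout by the normal test. Of the calls of named genes, 197 alternatives kept the call and 43 lost it, 27 of them under the F distribution, 11 at an adjusted p under 0.01 and 5 with the summed variance. Centring moved the fold changes by at most 0.004. The cause was not tested beyond what each alternative changes by its construction. What limits these results is the lack of values per library: replicate spread and depth enter through the authors' test alone.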

Other observations

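There were 185 ZNF genes below a mean log2 CPM of 4. In the double knockout 50 of them were higher (27%) and 11 lower (5.95%), against 22.9% and 20.1% of all genes. In the ANKRD52 knockout 6 were higher (3.24%) and 2 lower (1.08%), against 7.62% and 6.04% of all genes. In the AGO2 knockout 1 was higher (0.541%) and 2 lower (1.08%), against 3.38% and 2.72% of all genes. The set of all genes is not limited to that level. The median log2 fold changes of these 185 were 0.17, 0.08 and -0.11 in the double, ANKRD52 and AGO2 knockout, by the authors' deposited tables. The 73 genes named ZBTB, ZSCAN, ZKSCAN or ZFP are also zinc finger factors. In the double knockout 19 of these were higher (26%) and 5 lower (6.85%) by edgeR. In the ANKRD52 knockout 4 were higher (5.48%) and 2 lower (2.74%). In the AGO2 knockout 0 were higher and 3 lower (4.11%) by edgeR. At an unadjusted p under 0.05, 6 were higher and 9 lower in the AGO2 knockout.

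The number of fingers was described in 3 classes of members. In the double knockout, 21 of 53 members with over 12 fingers were higher (39.6%) and 5 lower (9.43%). With 8 to 12 fingers 22 of 60 were higher (36.7%) and 8 lower (13.3%), and with at most 7 fingers 17 of 62 were higher (27.4%) and 12 lower (19.4%). Among all genes 22.9% were higher and 20.1% lower there. Members on chromosome 1 gave 5 higher (41.7%) and none lower of 12 in the ANKRD52 knockout by edgeR (2 lower at an unadjusted p under 0.05). The 12 on chromosome 16 gave 1 higher (8.33%) and 2 lower (16.7%) there, against 7.62% higher and 6.04% lower among all genes. Coding matches to miR-199a gave another split in the ANKRD52 knockout than miR-23a. With a match 8 of 90 members were higher (8.89%) and 2 lower (2.22%), and without one 18 of 85 were higher (21.2%) and 3 lower (3.53%).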
